A study of Rattus norvegicus with 42 samples.

Results

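The comparison described here set 8 arrays of metanephric mesenchyme cultured with LIF against 8 arrays cultured with the ANX fraction. Both inducers were sampled on days 3, 4, 5 and 7 with 2 biological replicates each, and the 16 arrays were taken by inducer and day from the 42 of the series. The series comprised 21 groups of 2. The tissue was the mesenchyme of rat kidney rudiments at embryonic day 13.5, freed of the ureteric bud with trypsin and DNase. It was grown on collagen-coated transwell filters in DMEM/F12 with insulin, transferrin, selenium, dexamethasone, prostaglandin, T3, recombinant FGF and recombinant TGF, which every cultured group shared. Beside LIF and ANX NGAL served as another inducer on the same days. Freshly dissected mesenchyme and mesenchyme kept without an inducer for 1 and 2 days served as controls, so no uninduced culture matched days 3 to 7. The labels name ANX as a fraction and give neither its content nor the inducer doses. Strain and the number of embryos behind each sample are not given in the sources used here.

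Metanephric mesenchyme is the embryonic tissue that turns into nephron epithelium when it is induced, normally by the ureteric bud. LIF, leukemia inhibitory factor, is a cytokine of the IL-6 family that signals through the LIF receptor and gp130 (Il6st), JAK kinases and STAT3. SOCS3 is its feedback inhibitor. NF-kB is another signalling route, by which cytokines and cell stress turn on chemokine genes, and it is held in check by inhibitors that are themselves among its targets.

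Intensities were compared as log2 values, and a gene counted as above the signal threshold where its log2 value passed 5.79, the percentile 40 of all values. Genes were tested where at least 1 group mean passed that threshold, which left 11388 of 14218 genes with a probe set of their own. The arrays carried the defining genes of the tissue: Eya1 lay between 10.7 and 11.9 under LIF and between 10.6 and 11.7 under ANX, and Wt1, Pax2, Sall1, Hoxa11, Six4 and Meox1 were above the threshold on all 16 arrays. Gdnf was above it on 5 LIF and 7 ANX arrays. The progenitor genes Six2, Cited1 and Osr1 had no probe set of their own and were not analysed here. The leukocyte genes Ptprc and Csf1r and the collecting duct gene Aqp2 were below the threshold in every group, and the endothelial gene Tek was below it on all 16 arrays, although Kdr was above it on all 16. Other markers of such cells were above it: the macrophage genes C1qa and Cd68 on 8 LIF and 7 ANX arrays, the macrophage gene Aif1 on all 16 and the ureteric bud gene Ret on all 16, at 5.87 to 6.44 under LIF and 5.89 to 6.59 under ANX. The neuronal gene Elavl4 reached 10.5 under LIF and 9.69 under ANX, and the muscle gene Myog reached 10.4 and 9.31. Replicates of day 7 LIF and day 3 ANX differed most (SD of the log2 difference between replicates 0.596 and 0.571, against 0.26 to 0.455 in the other groups of this comparison). The 5S rRNA probe signal was 7.64 to 9.21 on the LIF arrays and 6.30 to 7.62 on the ANX arrays. These ranges did not overlap, so 5S signal and inducer cannot be told apart by group. The 3'/5' log2 ratio of the dap control RNA was 1.01 to 2.3 under LIF and 0.847 to 2.2 under ANX.

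Averaged over the 4 days, 257 of 11388 genes differed between LIF and ANX at an adjusted p under 0.05 (2.26%; limma over all genes with Benjamini-Hochberg adjustment). Of these, 83 were higher under LIF (0.729%) and 174 were higher under ANX (1.53%). The largest differences were higher under ANX and belonged to chemokines, lipocalin 2, lipoprotein lipase and stromelysin 1. Among the called genes 12 were higher under LIF and 28 higher under ANX by at least 1 log2 unit, and 228 of the 257 had the same sign on all 4 days. Over all tested genes the median difference, LIF minus ANX, was -0.016, with 5154 genes above 0 and 6234 below. In 20 genes (0.176%) the 8 LIF arrays and the 8 ANX arrays did not overlap: 3 with LIF above ANX and 17 with LIF below. With the 5S signal as a covariate, an alternative chosen after the data were seen, 32 genes were called, 29 of them among the 257. The number of calls also moved with single arrays: it became 699 when the second LIF array of day 7 was dropped, and 88, 101, 104 and 119 when the first LIF array of day 4, 7, 3 or 5 was dropped. Dropping the second LIF array of day 5 gave 147. Dropping the first ANX array of day 3, 4 or 7 gave 520, 109 and 123, and dropping the second ANX array of day 3 gave 158. Of 76 called genes followed by name, 38 stayed called whichever array was left out, 19 stayed called with the 5S covariate and 15 stayed called in every alternative. None of the 76 changed sign in an alternative that was run.

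**Figure D1:**
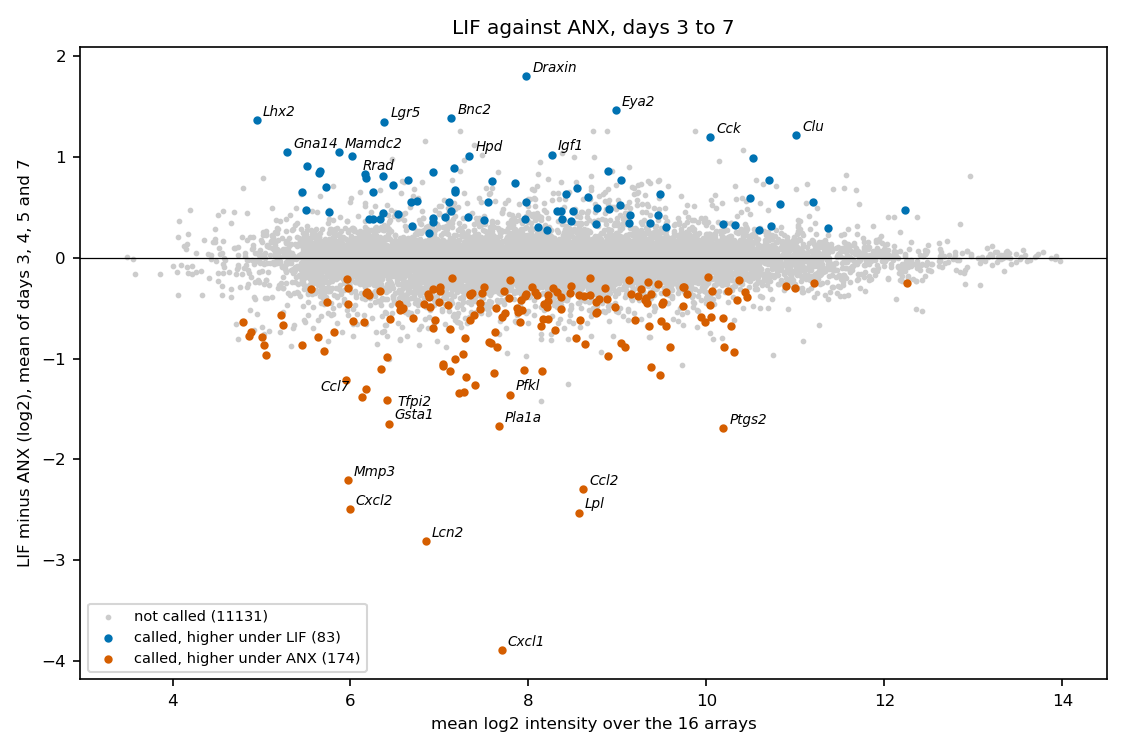
Each point is 1 of 11388 tested genes: the horizontal axis is its mean log2 intensity over the 16 arrays and the vertical axis the difference LIF minus ANX in log2 units, averaged over days 3, 4, 5 and 7. The 83 genes called higher under LIF are blue, the 174 called higher under ANX are orange, and the 12 largest in each direction are named, from Draxin at 1.81 to Cxcl1 at -3.90.

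Chemokines, secreted peptides that attract leukocytes, were among the genes that differed most. Cxcl1, a neutrophil-attracting chemokine, had a log2 intensity of 5.24 to 6.08 on the LIF arrays (median 5.90) and 8.28 to 10.9 on the ANX arrays (median 9.90). Every ANX array was above every LIF array, and fresh mesenchyme had a mean of 4.91 and uninduced mesenchyme on day 2 a mean of 5.13. Cxcl1 was 3.90 log2 higher under ANX (SE 0.33, limma adjusted p = 1.07e-07), and 3.75 with day means under the threshold set to it. Cxcl2, its close relative, lay at 4.39 to 5.16 under LIF (median 4.79) and at 5.87 to 9.44 under ANX (median 7.11). No LIF array passed the signal threshold and all ANX arrays did. The Cxcl2 difference was 2.50 log2 higher under ANX (SE 0.26, limma adjusted p = 2.36e-06), and 1.45 with day means under the threshold set to it. Ccl2, which attracts monocytes, was 6.34 to 8.78 under LIF (median 7.45) and 8.48 to 10.4 under ANX (median 9.87). Its ranges met at day 7, where LIF arrays reached their highest values, and it was 2.30 log2 higher under ANX (SE 0.28, limma adjusted p = 1.49e-05). Ccl7, another monocyte chemokine, was 1.38 log2 higher under ANX (SE 0.31, adjusted p = 0.0178), and Cxcl3 0.35 higher (SE 0.06, adjusted p = 0.00135). The Ccl7 difference was 1.01 with day means under the threshold set to it. Cxcl3 was the 1 called gene on a probe set of a type that can share signal with other genes, and such sharing was not tested. Its 2 other probe sets above the threshold gave -0.14 and -0.45, LIF minus ANX. The Cxcl3 call was lost with the 5S covariate (limma adjusted p = 0.16) and without day 3. Cxcl14 and Cxcl16, named after their values were seen, were 1.26 and 0.88 higher. Cxcl14 stayed called whichever array was dropped and with the 5S covariate, while Cxcl16 lost its call in 9 of 16 fits with single arrays dropped and with the covariate (adjusted p = 0.268). A second Cxcl14 probe set above the threshold gave a difference of only -0.05, LIF minus ANX.

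Lcn2, which encodes lipocalin 2, the protein also called NGAL, lay at 5.04 to 6.0 on the LIF arrays (median 5.36) and at 7.29 to 9.35 on the ANX arrays (median 8.20). The groups did not overlap, and fresh mesenchyme had a mean of 5.49. Lcn2 was 2.81 log2 higher under ANX (SE 0.20, limma adjusted p = 4.32e-09, the smallest of the comparison), and 2.44 with day means under the threshold set to it. Mmp3, stromelysin 1, a matrix protease, was 4.47 to 5.56 under LIF (median 4.80) and 5.48 to 8.39 under ANX (median 7.57). All LIF arrays were below the threshold, and the highest LIF array lay just above the lowest ANX array. Mmp3 was 2.21 log2 higher under ANX (SE 0.23, limma adjusted p = 2.66e-06), and 1.31 with day means under the threshold set to it. Ptgs2, the inducible cyclooxygenase of prostaglandin synthesis, was 7.94 to 10.4 under LIF (median 9.34) and 9.83 to 12.2 under ANX (median 11.1). Its ranges overlapped, both were far above the 3.68 of fresh mesenchyme and the 6.16 of uninduced mesenchyme on day 2, and it was 1.69 log2 higher under ANX (SE 0.33, adjusted p = 0.0061). The Ptgs2 call was kept whichever array was dropped. It was lost with the 5S covariate (limma adjusted p = 0.0817), with array weights, with only the 16 arrays fitted and without day 5.

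**Figure D2:**
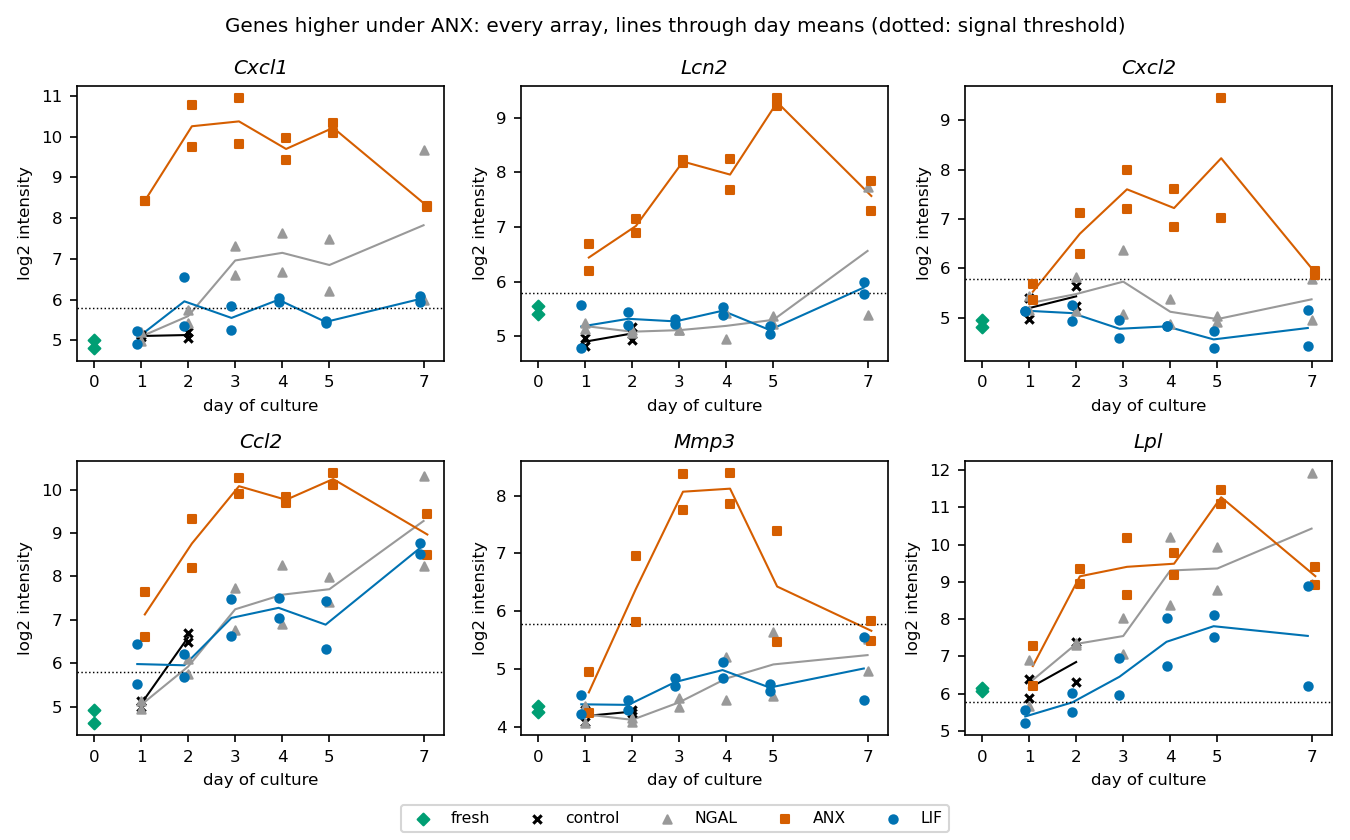
Log2 intensity of 6 genes on every array by day of culture; circles are LIF, squares ANX, triangles NGAL, crosses uninduced cultures and diamonds fresh mesenchyme, with lines through day means and a dotted line at the signal threshold of 5.79. For Cxcl1, Lcn2 and Cxcl2 all 8 ANX arrays of days 3 to 7 sit above all 8 LIF arrays. For all 6 genes the gap between day means is narrowest on day 7 among days 3 to 7.

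The list of chemokine and NF-kB response genes had 36 members, of which 29 were tested. Of the 29, 14 were called higher under ANX and 0 higher under LIF, beside 1.53% and 0.729% of all tested genes; the members' median difference was -0.51 against -0.016 over all tested genes, and 27 of 29 were below 0. Il6, Lif, Csf3, Il1a, Il1b, Mmp13 and Cxcl6 were not tested because no group mean passed the threshold. Sod2, mitochondrial superoxide dismutase, was 9.64 to 10.2 under LIF and 10.1 to 11.5 under ANX, a difference of 0.93 log2 (SE 0.10, limma adjusted p = 7.16e-06). C3, complement component 3, was below the threshold on every LIF array (4.49 to 4.74) and reached 6.53 under ANX (0.87 log2, SE 0.09, adjusted p = 3.25e-06), a difference of 0.14 with day means under the threshold set to it. Regulators of the pathway were also called: Nfkbiz, a nuclear IkB protein, was 1.13 higher under ANX (SE 0.25, adjusted p = 0.0167), Nfkb1, the p105/p50 subunit, 0.24 higher (SE 0.06, adjusted p = 0.0465) and Birc3, an apoptosis inhibitor, 0.21 higher (SE 0.06, adjusted p = 0.043). A second Nfkbiz probe set gave a difference of 0.059 in the other direction. Nfkbia and Tnfaip3, inhibitors that are among the pathway's usual targets, had differences of -0.36 and -0.51 and did not pass the test. Mmp9, gelatinase B, was 4.31 to 4.68 under LIF and 4.66 to 5.89 under ANX, near or below the threshold in both groups (0.78 higher under ANX, SE 0.11, adjusted p = 0.00018). Cxcl12, the stromal chemokine that attracts CXCR4-bearing cells, had a difference of 0.58 towards LIF and did not pass. With the 5S covariate 8 list members were called, Cxcl1, Cxcl2, Ccl2, Lcn2, Sod2, C3, Mmp3 and Mmp9, and 10 to 15 were called when single arrays were dropped. Ccl7, Nfkbiz, Nfkb1 and Birc3 lost their calls in 4, 3, 13 and 14 of these 16 fits.

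The promoters of the 3 genes whose arrays did not overlap among the 12 with the largest difference towards ANX are shown; each holds a match to the NF-kB consensus. Of the 14 called members of the chemokine list 10 had a promoter window, and 4 of these held the consensus, in Cxcl1, Cxcl2, Nfkbiz and Lcn2. Ccl7, Ptgs2, Nfkb1, Sod2, C3 and Mmp3 had no match in theirs. The windows are the 250 bases before the transcription start from RefSeq (build GRCr8), all on the minus strand, read 5' to 3' along the gene. They are chr14:17479322-17479571 for Cxcl1, chr14:17467256-17467505 for Cxcl2 and chr3:36081781-36082030 for Lcn2. Capitals mark the consensus match, searched on both strands.
Cxcl1: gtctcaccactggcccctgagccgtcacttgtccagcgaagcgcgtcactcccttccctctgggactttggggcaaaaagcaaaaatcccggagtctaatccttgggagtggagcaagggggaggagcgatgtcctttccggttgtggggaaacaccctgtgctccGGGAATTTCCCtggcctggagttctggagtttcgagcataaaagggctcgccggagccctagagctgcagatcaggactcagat
Cxcl2: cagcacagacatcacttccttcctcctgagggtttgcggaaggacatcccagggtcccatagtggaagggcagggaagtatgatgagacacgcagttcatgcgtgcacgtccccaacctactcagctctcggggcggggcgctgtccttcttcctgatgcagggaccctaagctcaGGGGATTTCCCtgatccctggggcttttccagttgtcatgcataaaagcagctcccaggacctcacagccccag
Lcn2: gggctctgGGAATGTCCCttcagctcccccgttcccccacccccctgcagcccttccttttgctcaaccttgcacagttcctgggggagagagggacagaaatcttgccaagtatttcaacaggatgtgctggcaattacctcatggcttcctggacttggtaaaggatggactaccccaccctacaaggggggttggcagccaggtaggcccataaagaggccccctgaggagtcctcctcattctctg
The match began 84 bases before the start in Cxcl1, 74 bases before it in Cxcl2 and 242 bases before it in Lcn2, and in Cxcl1 and Cxcl2 it holds 2 overlapping matches. The consensus occurred in 3.52% of all 27457 promoter windows and in 4.22% of those of tested genes. It occurred in 15 of 146 windows of genes called higher under ANX (10.3%) and in 2 of 64 of genes called higher under LIF (3.12%). The STAT motif TTCNNNGAA, which reads the same on both strands, was in 7.52% of all windows, 5.74% of those of tested genes, 6.85% of those higher under ANX (10 of 146) and 9.38% of those higher under LIF (6 of 64). The motifs were chosen after the expression values were seen, no test was made, and a match describes letters in a window, not binding.

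Several further secreted proteins and enzymes were higher under ANX. Lpl, lipoprotein lipase, was 5.95 to 8.90 under LIF (median 7.23) and 8.64 to 11.5 under ANX (median 9.59). Its ranges overlapped through 1 LIF array of day 7, and it was 5.77-fold higher under ANX (2.53 log2, SE 0.41, limma adjusted p = 0.00101). Pla1a, a phosphatidylserine-specific phospholipase, was 1.67 log2 higher (SE 0.27, adjusted p = 0.00108), and Gsta1, a glutathione transferase, 1.65 higher (SE 0.38, adjusted p = 0.0241). Tfpi2, a serine protease inhibitor of the extracellular matrix, was 4.73 to 6.82 under LIF and 5.04 to 8.69 under ANX and was 1.41 higher (SE 0.24, adjusted p = 0.0018). Among genes named after their values were seen, Slpi, an inhibitor of leukocyte proteases, was 1.14 higher, Serpine2, protease nexin 1, 0.97 higher, Mmp12, macrophage elastase, 0.98 higher, Il11, a cytokine that also signals through gp130, 0.86 higher and Ptgs1, the constitutive cyclooxygenase, 1.18 higher. With single arrays dropped in turn, Gsta1 lost its call in 6 of 16 fits and Il11 in 7, while those of Lpl, Pla1a, Tfpi2, Slpi, Serpine2, Mmp12 and Ptgs1 were kept in all 16. With the 5S covariate Gsta1, Il11, Serpine2 and Ptgs1 lost their calls (adjusted p = 0.292, 0.506, 0.171 and 0.104). Without day 5, Gsta1, Il11, Tfpi2 and Ptgs1 lost theirs. These 4 and Serpine2 also did with only the 16 arrays fitted, and Ptgs1 with probe sets averaged. Ptgs1 was 2.63 higher under ANX on day 5 and 0.82, 0.95 and 0.34 higher on days 3, 4 and 7. Il11 lay near the threshold, with a difference of 0.39 when day means under it were set to it.

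Genes of glucose uptake and glycolysis were called towards ANX. In the hypoxia and glycolysis list 37 genes were tested, 4 were called higher under ANX and 0 higher under LIF (beside 1.53% and 0.729% of all tested genes), 32 lay below 0, and the median was -0.18 against -0.016 over all genes. Slc2a1, the glucose transporter GLUT1, was 8.86 to 9.50 on the LIF arrays (median 9.26) and 9.65 to 10.1 on the ANX arrays (median 9.87). The groups did not overlap, and the difference was 0.68 log2 (SE 0.10, limma adjusted p = 0.000415). Pfkl, liver phosphofructokinase, was 1.36 higher under ANX (SE 0.31, adjusted p = 0.0209), Vegfa, the vascular growth factor, 0.62 higher (SE 0.15, adjusted p = 0.0325) and Aldoa, aldolase A, 0.25 higher (SE 0.06, adjusted p = 0.041). Slc2a1 stayed called whichever array was dropped, Pfkl, Vegfa and Aldoa lost their calls in 7, 8 and 12 of 16 such fits, and none of the 4 was kept with the 5S covariate. In the iron list of 17 tested genes, Lcn2 and Cp, the ferroxidase ceruloplasmin, were called (Cp 0.46 higher under ANX, SE 0.12, adjusted p = 0.0405), with a list median of -0.21. Cp lost its call in 10 of 16 fits with single arrays dropped and with the 5S covariate (adjusted p = 0.296).

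Basement membrane and signalling genes gave smaller differences. Their counts are to be read beside 1.53% of all tested genes called higher under ANX and 0.729% called higher under LIF. Col4a1 and Col4a2, which encode the chains of basement membrane collagen IV, were 0.67 (SE 0.13, limma adjusted p = 0.00473) and 0.59 (SE 0.13, adjusted p = 0.0128) higher under ANX, and Mmp2, gelatinase A, 0.59 higher (SE 0.14, adjusted p = 0.028). These were the 3 called among 46 tested matrix genes, whose median was -0.097. Itgb5, an integrin subunit, was the 1 of 20 contractile and TGF-beta target genes called (0.79 higher under ANX, SE 0.13, adjusted p = 0.000987). Of 27 tested genes of the BMP and activin list 4 were called higher under ANX and 1 higher under LIF: the ligands Bmp5 (0.96 towards ANX, SE 0.20, adjusted p = 0.00942) and Tgfb1 (0.80, SE 0.17, adjusted p = 0.0128), the inhibitory Smad6 (0.37, SE 0.08, adjusted p = 0.00942), the BMP antagonist Nbl1 (0.55, SE 0.14, adjusted p = 0.0364), and towards LIF the BMP antagonist Chrd (0.65, SE 0.14, adjusted p = 0.0118). The list's median was -0.17. Flt1, a VEGF receptor of endothelium, was 5.23 to 5.77 on the LIF arrays and 6.06 to 7.88 on the ANX arrays, with no overlap (1.30 higher under ANX, SE 0.19, adjusted p = 0.000255). Of 20 tested endothelial genes, Ramp2 was the other one called higher under ANX (0.51, SE 0.14, adjusted p = 0.0498) and Sox17 was called higher under LIF (0.70, SE 0.19, adjusted p = 0.0471). Col4a1, Itgb5, Bmp5, Smad6 and Flt1 stayed called whichever array was dropped, and Col4a2, Mmp2, Tgfb1, Nbl1, Chrd, Ramp2 and Sox17 lost their calls in 1 to 12 of 16 such fits. Of all these genes only Flt1 kept its call with the 5S covariate (Col4a1 adjusted p = 0.475, Itgb5 0.134, Bmp5 0.163, Smad6 0.425). Second probe sets above the threshold gave -0.13 for Flt1 and -0.00 for Mmp2, LIF minus ANX. Those of Col4a1, Itgb5, Bmp5 and Smad6 gave -0.67, -0.55, -0.33 and -0.36. Bmp5 and Chrd lay near the threshold. With day means under it set to it, their differences were 0.14 towards ANX and 0.12 towards LIF. Treated in the same way, Flt1 differed by 1.03 towards ANX and Sox17 by 0.49 towards LIF. The summed endothelial list, as its mean level per array, was 5.86 to 6.5 under LIF and 5.97 to 6.94 under ANX; its part in these calls was not tested, and in whole cultures fewer cells of a type and less RNA per cell cannot be told apart.

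The genes higher under LIF had smaller differences and no common list among those examined. Draxin, a secreted Wnt antagonist known from axon guidance, lay at 7.79 to 9.87 on the LIF arrays (median 9.06) and at 6.14 to 7.97 on the ANX arrays (median 7.07). Its ranges overlapped slightly, fresh mesenchyme had a mean of 6.09 and uninduced mesenchyme on day 2 a mean of 6.53, and it was 3.50-fold higher under LIF (1.81 log2, SE 0.34, limma adjusted p = 0.00465). Eya2, a phosphatase and transcriptional coactivator, was 7.82 to 10.6 under LIF (median 9.83) and 7.54 to 9.10 under ANX (median 8.09). All LIF arrays but 1 of day 7 were above every ANX array, and Eya2 was 1.47 log2 higher under LIF (SE 0.29, adjusted p = 0.00714). Lhx2, a LIM homeobox transcription factor, was 4.51 to 7.21 under LIF (median 5.48) and 3.87 to 4.50 under ANX (median 4.28). The groups did not overlap, by a margin of the last digit given, and ANX arrays were all below the threshold. The Lhx2 difference was 1.36 (SE 0.16, limma adjusted p = 1.07e-05), or 0.26 with day means under the threshold set to it; it was 2.67 on day 3 and 0.27 on day 7.

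Lgr5, a receptor for R-spondins that marks epithelial stem cells, was 5.78 to 8.20 under LIF (median 7.06) and 4.75 to 7.67 under ANX (median 5.46). Its highest ANX value lay within the LIF range, and it was 1.35 log2 higher under LIF (SE 0.23, limma adjusted p = 0.00133). Bnc2, a zinc finger protein of mesenchyme, was 6.91 to 8.63 under LIF and 5.49 to 7.90 under ANX (1.39 higher under LIF, SE 0.36, adjusted p = 0.0406), and it was 10.3 in uninduced mesenchyme on day 2. Clu, the secreted chaperone clusterin, was 10.7 to 12.9 under LIF and 9.03 to 12.7 under ANX (1.22 higher, SE 0.28, adjusted p = 0.0207). The other members of the 12 largest differences towards LIF were Cck, a peptide hormone, at 1.20, Gna14, a G protein subunit, at 1.05, Mamdc2 at 1.05, the growth factor Igf1 at 1.02, Hpd, an enzyme of tyrosine breakdown, at 1.01 and Rrad, a Ras-related GTPase, at 1.01. Draxin, Eya2, Lhx2, Lgr5, Gna14, Mamdc2 and Rrad stayed called whichever array was left out. Bnc2, Clu, Cck, Igf1 and Hpd lost their calls in 4 to 12 of 16 such fits (highest adjusted p 0.0679 to 0.159), and with the 5S covariate only Lhx2, Lgr5 and Rrad of these 12 were kept. Draxin, Eya2, Lgr5, Gna14 and Mamdc2 also lost their calls with only the 16 arrays fitted, and Eya2, Gna14 and Rrad lost theirs without day 3. With day means under the threshold set to it, the differences of Lgr5, Gna14, Mamdc2 and Rrad were 0.99, 0.25, 0.61 and 0.69. Named after their values were seen, the transcription factors Gbx2, Tfap2c, Prox1, Prdm1 and Irf8 were 0.84, 0.92, 0.67, 0.66 and 0.65 higher under LIF, the neurotrophin Ntf3 0.74 higher and the glutathione peroxidase Gpx2 0.79 higher; of these, Prox1 lost its call in 11 of the 16 fits, Prdm1 in 4, Irf8 in 2 and Ntf3 in 1, and only Gpx2 kept it with the 5S covariate. With day means under the threshold set to it, Gbx2 and Tfap2c differed by 0.38 and 0.33.

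**Figure D3:**
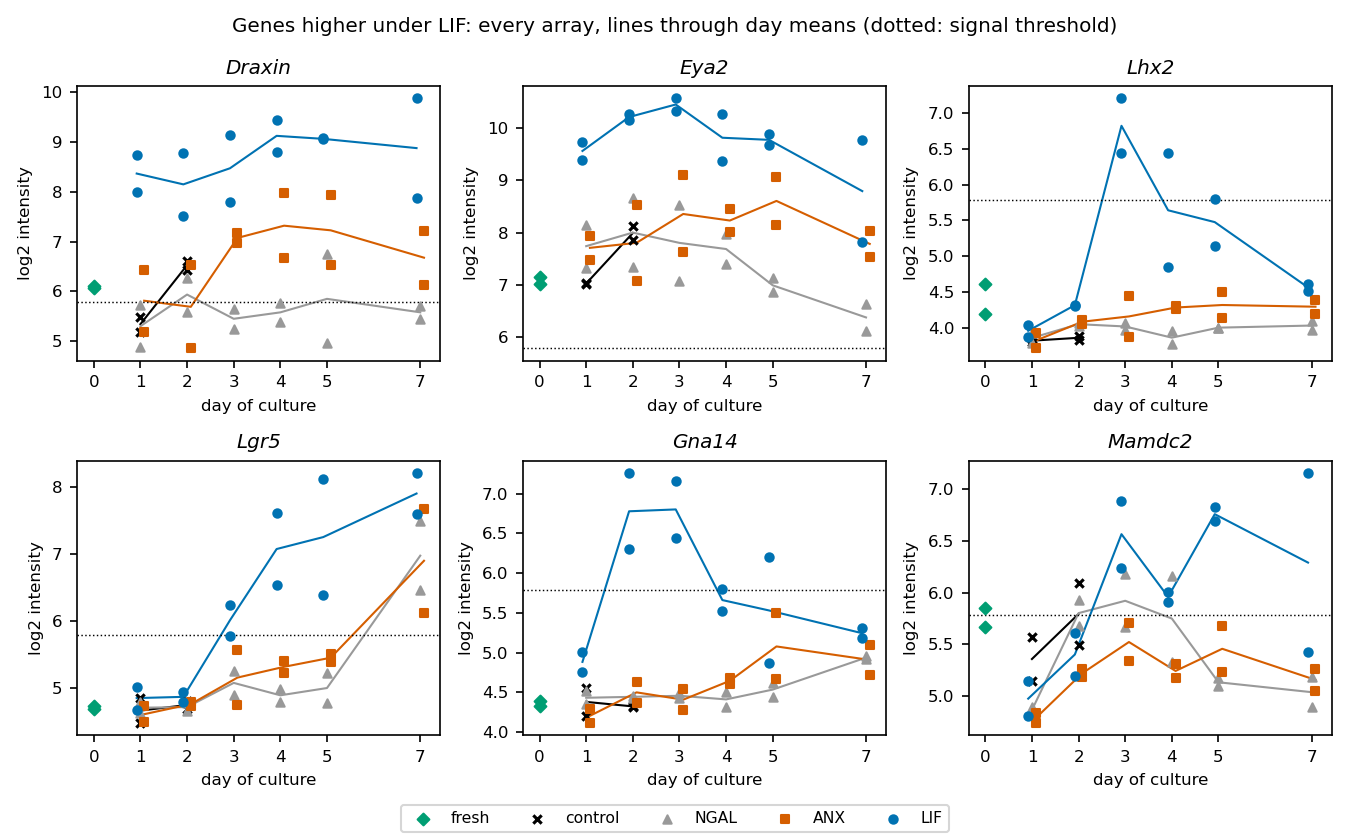
Log2 intensity of 6 genes on every array by day of culture, with symbols, lines and threshold as in the plot of genes higher under ANX. For Draxin and Eya2 the LIF mean is above the ANX mean on every day from day 1, Lhx2 is highest under LIF on day 3 and is close to ANX on day 7, and the NGAL means of days 3 to 7 lie below those of ANX for Lhx2 and Draxin.

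The genes of the LIF pathway were called in both directions. Of 34 tested genes in the LIF and STAT3 list, 2 were called higher under LIF and 3 higher under ANX, beside 0.729% and 1.53% of all tested genes. In this list 17 lay above 0 and 17 below, and the median was 0.0082. Jak1, the kinase bound to gp130, was 10.7 to 11.1 under LIF and 10.3 to 10.8 under ANX (0.32 higher under LIF, SE 0.07, limma adjusted p = 0.0189). Il1r2, a decoy receptor for IL-1, was 0.76 higher under LIF (SE 0.20, adjusted p = 0.0433). Those higher under ANX were Lcn2, Ccl2 and Cebpb, a transcription factor of the acute phase (0.89, SE 0.22, adjusted p = 0.0311); Lcn2 and Ccl2 also belong to the chemokine list. Socs3 had a median of 8.19 under LIF and 7.66 under ANX and did not pass the test over days 3 to 7 (difference 0.42, 95% interval 0.096 to 0.75, adjusted p = 0.16). Over days 1 and 2 it was 1.05 higher under LIF (limma adjusted p = 0.0242). The change of the Socs3 difference between these periods, -0.63, did not pass its own test. Stat3 had a difference of 0.34 (95% interval -0.22 to 0.90). A second Stat3 probe set above the threshold gave -0.35, LIF minus ANX, the opposite direction. Igtp, an interferon-inducible GTPase, was 6.97 to 8.09 on LIF arrays and 6.14 to 6.77 on ANX arrays with no overlap (0.85 higher under LIF, SE 0.12, adjusted p = 0.000233). It was 1 of 18 tested interferon genes called towards LIF, and Tap1, a peptide transporter of antigen presentation, was 1 called towards ANX (0.34, SE 0.08, adjusted p = 0.0292). Igtp stayed called whichever array was dropped but not with the 5S covariate (adjusted p = 0.104). Jak1, Il1r2, Cebpb and Tap1 lost their calls in 6 to 12 of 16 fits with single arrays dropped. They also lost them with the 5S covariate (limma adjusted p = 0.491, 0.178, 0.541 and 0.421).

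None of the nephron genes picked as landmarks passed the test. Pax8, a transcription factor of the induced mesenchyme, was 8.39 to 10.9 under LIF and 9.52 to 10.8 under ANX (median 10.4). The groups overlapped and the difference of -0.46 did not pass (95% interval -0.91 to -0.0034, limma adjusted p = 0.279). Wnt4, the signal that drives the mesenchyme to epithelium, had a difference of -0.41 (95% interval -0.98 to 0.16), Lhx1 -0.16 (-0.58 to 0.25) and Jag1, a Notch ligand, -0.18 (-0.56 to 0.20). Wt1, a transcription factor of progenitors and podocytes, had -0.50 (-0.90 to -0.11, adjusted p = 0.168). Pax2 and Eya1, genes of the nephron progenitor, had -0.35 (-0.82 to 0.11) and 0.04 (-0.49 to 0.57). Epcam, an epithelial adhesion molecule, had a mean of 8.99 under LIF and 9.96 under ANX on day 7 and a difference of 0.11 over the 4 days (-0.42 to 0.63). Cdh1, E-cadherin, was below the threshold on days 3 and 4 in both groups and had day 7 means of 6.73 under LIF and 8.56 under ANX; the difference over the 4 days was -0.70 (-1.47 to 0.076). The intervals show how large a difference these arrays leave possible for each gene, and they do not make the levels alike. On day 3 alone the differences were -1.23 for Pax8, -1.22 for Wnt4, -0.97 for Jag1 and 1.37 for Epcam, and none of them passed.

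**Figure D4:**
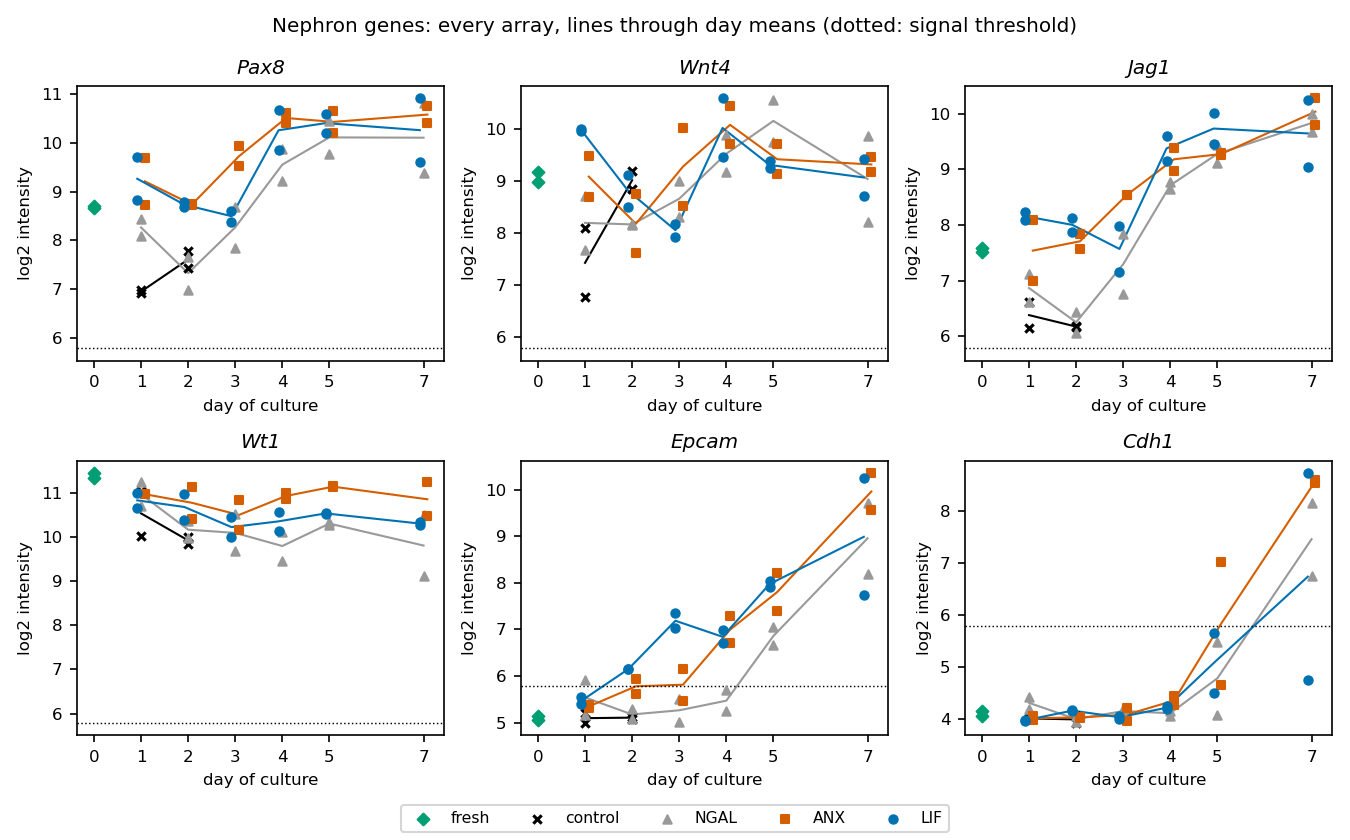
Log2 intensity of 6 nephron and epithelial genes on every array by day of culture, with symbols, lines and threshold as in the plot of genes higher under ANX. With days 3 to 7 pooled, the LIF and ANX ranges overlap for Pax8, Wnt4, Jag1 and Epcam. On day 3 alone the LIF arrays lie below the ANX arrays for Pax8, Wnt4 and Jag1 and above them for Epcam. Cdh1 is above the threshold on 1 of the LIF and both of the ANX arrays of day 7.

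Across the nephron lists the calls, to be read beside the 2.26% of all tested genes, were as follows. In the epithelial junction and keratin list (29 tested), the proximal tubule list (24) and the loop and distal tubule list (14) none was called, with medians of -0.12, -0.0094 and -0.12; at an unadjusted level the whole comparison held 2020 genes with p under 0.05. Of 17 progenitor genes Itga8, an integrin subunit of the mesenchyme, was called: it was 6.13 to 7.53 under LIF and 7.64 to 8.22 under ANX, with no overlap (0.83 higher under ANX, SE 0.18, limma adjusted p = 0.0151). Of 14 induction genes Tcf7, a Wnt pathway transcription factor, was called (0.43 higher under ANX, SE 0.11, adjusted p = 0.0419). Foxc2 and Vegfa were called among 15 podocyte and parietal genes, both higher under ANX (Foxc2 1.06, SE 0.27, adjusted p = 0.0399). Among 23 Wnt target genes Lgr5 was called towards LIF, and Tcf7 and Wnt5a, a non-canonical Wnt ligand (1.08, SE 0.28, adjusted p = 0.0393), towards ANX. In 29 stromal genes Smoc2, a matricellular protein, was called towards LIF (0.81, SE 0.20, adjusted p = 0.0311) and Ntn1, a guidance molecule, towards ANX (0.74, SE 0.14, adjusted p = 0.0068). Col1a1, the main fibrillar collagen, varied from 6.84 to 10.5 under LIF and from 7.68 to 10.9 under ANX and had a difference of -0.45 (95% interval -1.42 to 0.52). With single arrays dropped, Itga8 and Ntn1 stayed called, though neither did with the 5S covariate (adjusted p = 0.268 and 0.0673) or without day 3, and Tcf7, Foxc2, Vegfa, Wnt5a and Smoc2 lost their calls in 7 to 12 of 16 fits. Other probe sets above the threshold gave 0.03 and 0.07 for Smoc2 and -0.09 and -1.41 for Foxc2, LIF minus ANX. For Itga8 and Vegfa they gave -0.61 and -1.15. The LIF day means of Ntn1 were below the threshold on all 4 days. With day means under the threshold set to it, the Ntn1 difference was 0.43 towards ANX. Fst, the activin antagonist follistatin, had -0.82 (-1.38 to -0.27, adjusted p = 0.107).

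The other lists gave single calls or none. Across all 31 lists, 623 of 812 genes were tested, and 25 lists had a median below 0. Of the 623, 7 were called higher under LIF and 41 higher under ANX, beside 0.729% and 1.53% of all tested genes. There was no call among 33 replication and mitosis genes (median -0.077), 30 FGF and MAPK genes (-0.0087), 19 Notch genes (-0.018), 18 retinoic acid genes (-0.17) and 19 cholesterol synthesis genes (-0.063). Sesn1 (0.40, SE 0.10, limma adjusted p = 0.0393) was the 1 of 14 p53 targets called, Lpl the 1 of 16 glucocorticoid and metallothionein genes, and Gdf15 (0.63, SE 0.17, adjusted p = 0.0486) the 1 of 26 amino acid stress genes, each higher under ANX. Sesn1 and Gdf15 lost their calls in 10 and 11 of 16 fits with single arrays dropped, Snap25 in 12, and Upk1b in none. None of these 4 was kept with the 5S covariate (Upk1b adjusted p = 0.28), and Upk1b was also lost without day 4. Gdf15 differed by 0.024 with day means under the threshold set to it. Of the markers of other cell types, Upk1b, a urothelial protein, was 6.09 to 6.98 under LIF and 7.09 to 8.46 under ANX with no overlap (1.12 higher, SE 0.23, adjusted p = 0.00924), the 1 of 17 ureteric bud and collecting duct genes called. Snap25 was the 1 of 14 neuron and Schwann cell genes (0.64 higher under ANX, SE 0.16, adjusted p = 0.0384), while 12 of those 14 lay above 0. None of the macrophage (15), erythroid (12), muscle (18) or cartilage (11) genes was called. The skeletal muscle genes had the highest median, 0.37, with 17 of 18 above 0, and their mean level per array ran from 6.25 to 8.78 under LIF and from 6.13 to 7.69 under ANX; their part in the genes higher under LIF was not tested.

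**Figure D5:**
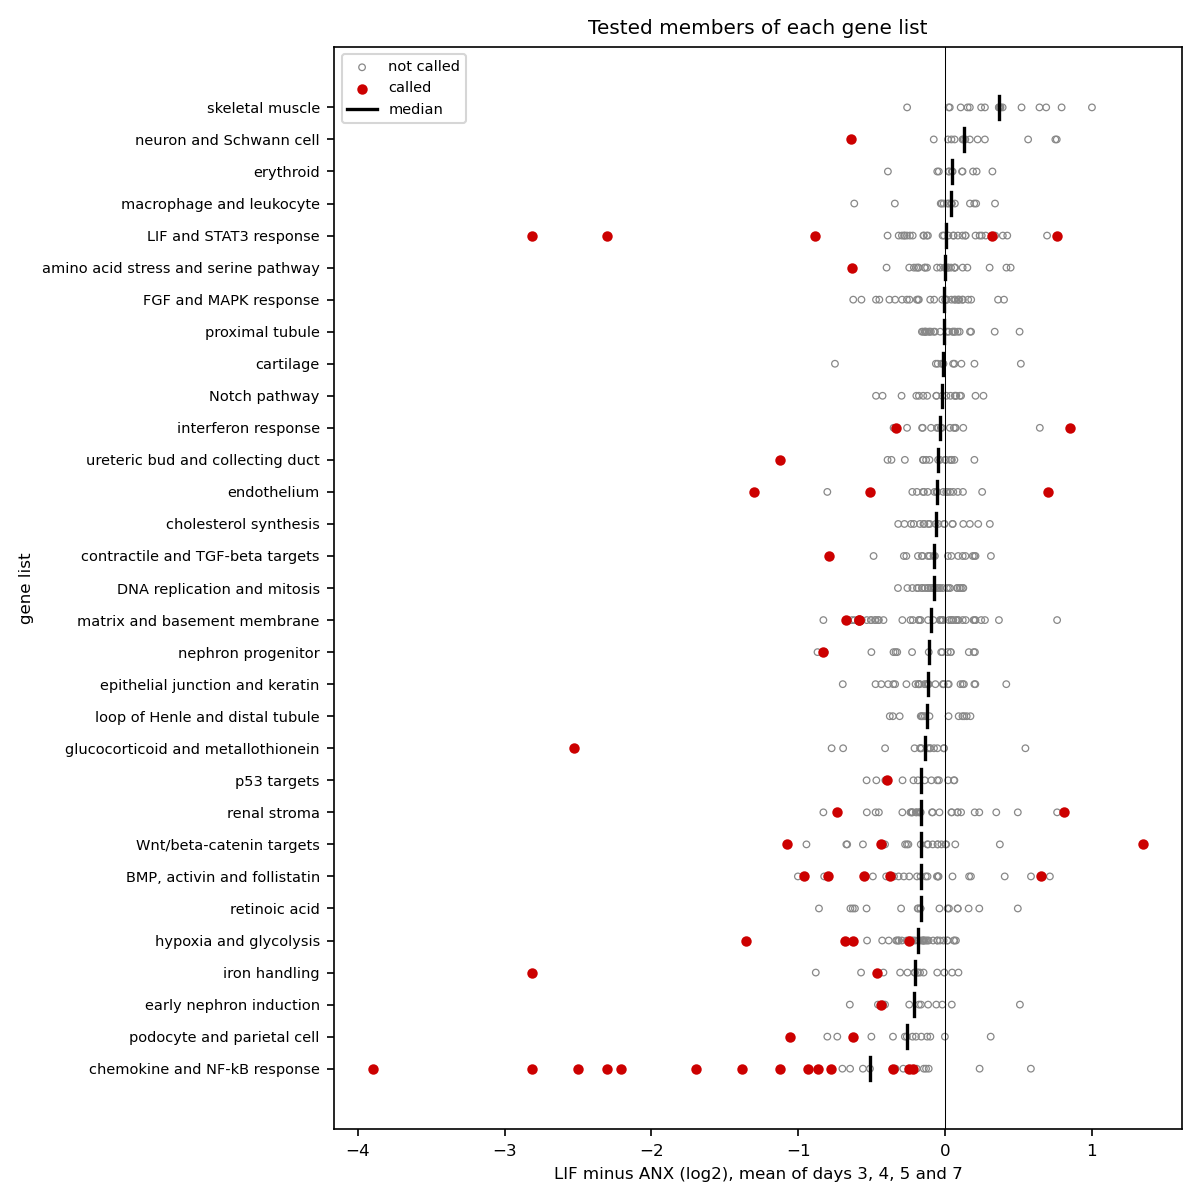
Each row is a gene list and each point a tested member, placed by its difference LIF minus ANX in log2 units averaged over the 4 days; red points passed the test and black bars are list medians. The chemokine and NF-kB list reaches furthest to the left, with a median of -0.51 and 14 called members, and the skeletal muscle list has the median furthest to the right, 0.37, with 0 called.

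Day by day, with 2 arrays against 2, 44 genes were called on day 3 (0.386%), 3 on day 4 (0.0263%), 22 on day 5 (0.193%) and 0 on day 7, where 477 genes had an unadjusted p under 0.05. The genes of day 4 were Cxcl1, Lcn2 and Mmp3, all higher under ANX. On day 3, 21 were higher under LIF and 23 higher under ANX, and on day 5, 3 and 19. The counts changed with single arrays: day 3 had 368 calls with the first ANX array dropped, 9 with the second dropped, and 14 or 8 with the first or second LIF array dropped. Day 5 had 70 or 7 with the first or second ANX array dropped and 7 with the first LIF array dropped. Day 7 had 151 with the second LIF array dropped and 4 with the first ANX array dropped. For day 4 the range was 0 to 4. The 257 genes called over the 4 days had a median size of 0.577, 0.501, 0.622 and 0.376 log2 on days 3, 4, 5 and 7, beside 0.15, 0.107, 0.156 and 0.133 over all tested genes, and 127 of them had their smallest difference on day 7. Cxcl1 was higher under ANX by 4.83, 3.71, 4.77 and 2.28 on the 4 days, Lcn2 by 2.93, 2.49, 4.17 and 1.68, and Ccl2 by 3.03, 2.49, 3.36 and 0.32. Draxin was higher under LIF by 1.40, 1.80, 1.84 and 2.20, and Eya2 by 2.10, 1.59, 1.17 and 1.01.

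The change of the difference with time was tested by setting days 5 and 7 against days 3 and 4. It passed in 1 gene (0.00878%), Aldh1l2, a mitochondrial enzyme of folate metabolism. Aldh1l2 had day means of 6.79, 7.47, 7.61 and 7.13 under LIF and of 7.87, 7.70, 6.67 and 6.97 under ANX. The LIF means were the lower ones on days 3 and 4 and the higher ones on days 5 and 7, and the change was 1.21 log2 (SE 0.20, limma adjusted p = 0.0342). It stayed called when the first ANX array of day 5 or 7, the first LIF array of day 4 or 5, or the second LIF array of day 7 was dropped. Dropping any of the other 11 arrays ended the call, with adjusted p-values between 0.0504 and 0.226.

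Over days 1 and 2, which use other arrays, 71 genes were called between LIF and ANX (0.623%), 31 higher under LIF and 40 higher under ANX. Of the 12 genes with the largest difference towards ANX over days 3 to 7, 5 were called over days 1 and 2, and all 12 had the same sign. Cxcl1 was 3.84 higher under ANX on those days (limma adjusted p = 0.000124), Ptgs2 2.64 (adjusted p = 0.00791), Ccl2 1.98 (adjusted p = 0.0136), Pla1a 1.63 (adjusted p = 0.0456) and Lcn2 1.48 (adjusted p = 0.0126). Of the 12 largest towards LIF, 3 were called and 11 had the same sign: Draxin was 2.50 higher under LIF (adjusted p = 0.0126), Eya2 2.13 (adjusted p = 0.0126) and Gna14 1.48 (adjusted p = 0.00233). Igf1 was the exception in sign, at -0.73. The change of the difference between days 1 to 2 and days 3 to 7 passed in 1 gene (0.00878%), Sox17, a transcription factor of endothelium. Sox17 had means of 6.78 and 6.04 under LIF and 8.17 and 7.47 under ANX on days 1 and 2, and of 7.36 and 6.82 under LIF and 6.43 and 4.83 under ANX on days 4 and 5. On days 3 and 7 they were 5.61 and 4.53 under LIF and 5.72 and 4.52 under ANX. ANX was higher on days 1 and 2, LIF on days 4 and 5, and the means were close on days 3 and 7, a change of 2.11 log2 (SE 0.33, limma adjusted p = 0.0113). The call ended when the second LIF array of day 1 (adjusted p = 0.0828), the first or second LIF array of day 2 (adjusted p = 0.0535 and 0.0649), the second ANX array of day 1 (adjusted p = 0.112) or the first of day 2 (adjusted p = 0.12) was dropped.

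NGAL set against the same LIF and ANX arrays gave far more calls: 4443 of 11388 genes against LIF (39%; 18.7% with NGAL higher and 20.3% with NGAL lower) and 4095 against ANX (36%; 14.8% higher and 21.2% lower). These comparisons share arrays with the one described, so their values are given side by side and nothing is read from their likeness. Of the 12 genes with the largest difference towards LIF, the NGAL mean was below both others in 9, between them in 2 and above both in 1, Bnc2. Draxin had a median of 5.55 under NGAL, beside 9.06 under LIF and 7.07 under ANX. Of the 12 with the largest difference towards ANX, the NGAL mean was between the others in 9, below both in 2 and above both in 1. Cxcl1 was 5.99 to 9.67 on the NGAL arrays (median 6.99), 2.45 below ANX and 1.44 above LIF. Lcn2 under NGAL had a median of 5.30 and 1 array at 7.73, and Mmp3 a median of 4.75. For Lcn2 and Mmp3 the NGAL median lay near that of LIF, and for Pla1a, at 8.29, near that of ANX, 8.28.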

How the data were processed

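RNA of 42 samples was hybridised to Affymetrix Rat Genome 230 2.0 arrays. The deposited values are linear intensities made by robust multichip analysis (RMA), per the labels and the submitters' processing notes; no software version is given there. Array medians were 83.3 to 88.4; the number of arrays limits the precision. Intensities were taken to log2. Of 31099 probe sets, 20832 had 1 gene symbol, 436 several and 9831 none in the platform annotation used here, which can be old; the probe set with the highest mean over all arrays stood for each of 14218 genes. Probe sets of near-identical gene copies can share signal. Of the called genes 77 had another probe set above the threshold, and 16 of these had another probe set of opposite sign.

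Group means of all 21 groups were fitted with limma 3.58.1 in R 4.3.3 (21 residual degrees of freedom, variance trend, Benjamini-Hochberg adjustment), and LIF minus ANX was averaged over the 4 days. A gene was called at an adjusted p under 0.05. SE and 95% intervals come from this fit, and tests are two-sided. On simulated data for this comparison, run on 11388 genes, 76% of shifts of 0.5 log2 and 95% of shifts of 1 log2 were recovered, with 10 false calls among 11188 unchanged genes. The simulated noise was independent for each gene and array. It held no effect shared by the genes of an array and no 5S difference between inducers. False calls under such effects were therefore not measured. Named genes were the 12 largest called differences in each direction with 1 sign on all days, up to 4 called members with the smallest adjusted p per list, and fixed landmark genes; the rest of a list's called members and those said so were chosen after their values were seen. The comparison and its gene lists were chosen with earlier results of these data known. Alternatives were the filter, probe set rule, normalization, array weights, quality covariates, days or arrays left out and the replicate number as a block. Replicate numbers were not taken as pairs: the correlation of same-numbered deviations was -0.0756, 0.3336, 0.3068 and 0.5043 on days 3, 4, 5 and 7, not above 0.1 on all.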

Additional observations from a re-analysis of the deposited data

Results flagged for a closer look

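For 2 genes the difference between LIF and ANX itself changed between times by a test of that change. For Aldh1l2 the difference LIF minus ANX was 1.21 log2 larger on days 5 and 7 than on days 3 and 4 (limma adjusted p = 0.0342). For Sox17 it was 2.11 log2 larger on days 3 to 7 than on days 1 and 2 (limma adjusted p = 0.0113). The Sox17 difference went from -1.41 on days 1 and 2 to 0.70 later. Day by day it was -0.11, 0.93, 1.99 and 0.0094 on days 3, 4, 5 and 7. Both calls were lost when some single arrays were dropped and with only the arrays compared.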

How the results depend on the processing

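The direction of all 257 calls was kept in the alternatives run wherever the gene was measured, apart from the fit with probe sets averaged. There 249 kept it. That fit filtered genes anew on the averaged values, and called genes that fell out of it count as not kept. Gna14, Mmp9 and Sox17 fell out in this way and did not turn in sign. The number of calls, 257 (83 towards LIF, 174 towards ANX), became 32 (6 and 26) with the 5S covariate, 100 (25 and 75) with array weights, 53 (14 and 39) with only the 16 arrays fitted and 40 (12 and 28) with a 2-fold minimum. It was 100 (14 and 86) without day 3, 96 (28 and 68) without day 4 and 64 (21 and 43) without day 5, and 43 were called towards LIF without day 7. Calls of the chemokine list, 14, became 8 with the 5S covariate and 9 with only those arrays, without day 3 or without day 5. Day 3 had 29 calls with the 5S covariate and 4 with array weights, day 4 had 1 with the 5S covariate, and day 5 had 187 with array weights and 39 with the dap covariate. The call between later and earlier days went to 0 with the 5S covariate, array weights or only the arrays compared, and to 2 with no filter. The call between days 3 to 7 and days 1 and 2 went to 2 with the 5S covariate or no filter. It went to 0 with probe sets averaged or only the arrays compared. With probe sets averaged Sox17 did not pass the signal filter, so its change was not tested there. The cause of the other shifts was not tested, except that leaving out days or arrays uses fewer samples.

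With the replicate number as a replicate block 346 genes were called, and with the block within each day, added after the data were seen, 316, of which 216 were among the 257; Bnc2, Cck, Cp, Hpd, Igf1, Mmp2, Prox1, Sesn1 and Tcf7 were not. The latter left 1 call on day 4 and 0 between later and earlier days. Pairing changed no other count by over 1.5 times. With the replicate block the counts were 107 towards LIF and 239 towards ANX.

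Leaving out 1 array gave 88 to 699 calls (21 to 220 towards LIF, 67 to 479 towards ANX), 8 to 368 on day 3, 0 to 4 on day 4, 7 to 70 on day 5, 0 to 151 on day 7, 0 to 5 between later and earlier days, 0 to 4 against days 1 and 2 and 10 to 15 in the chemokine list. Genes with no call in the comparison turned in sign as follows. Epcam was -0.32 and Eya1 -0.20 without day 3, and Jag1 0.087. Wt1 was 0.046 and Stat3 -0.50 with the 5S covariate, and Stat3 -0.0030 with probe sets averaged. With 1 array left out Lhx1 ran from -0.34 to 0.016, Epcam from -0.21 to 0.42, Eya1 from -0.098 to 0.17 and Col1a1 from -0.91 to 0.0067. Lhx2, Mmp9 and other genes lie near the signal threshold, which limits what their differences can show; Mmp9 differed by 0 with day means under it set to it.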
